A study of Homo sapiens with 2 samples.

Results

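The genes described here encode aminoacyl-tRNA synthetases, the enzymes that attach each amino acid to its transfer RNA. They were taken by gene symbol from a list of 36 names, and all 36 were found among the 19220 gene symbols of the count table. The list holds 20 genes for the cytosol (AARS, CARS, DARS and so on) and 16 for the mitochondrion, whose symbols end in 2. All 36 passed the minimum of 100 counts summed over both libraries that defined the 11244 measured genes, and the lowest count of any member in any library was 373 (WARS2, untreated).

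Each synthetase recognises its amino acid and its tRNA, activates the amino acid with ATP and transfers it to the tRNA. Human cells keep largely separate gene sets for cytosolic and mitochondrial translation. The enzymes fall into class I and class II, which have unrelated catalytic folds. Some cytosolic enzymes assemble with the non-enzymatic proteins AIMP1, AIMP2 and EEF1E1 into the multi-tRNA synthetase complex. Many cytosolic synthetase genes are known targets of ATF4, the transcription factor of the amino acid response.

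The samples were 1 library of untreated wild-type H9 cells and 1 library of wild-type H9 cells kept for 6 h with 0.05 µM doxorubicin. Doxorubicin is an anthracycline drug that poisons topoisomerase II. The untreated sample is labelled as doxorubicin for 0 hour. The labels name no sample kept for 6 h without the drug, so drug and time in culture cannot be told apart. H9 is an established T lymphocyte line from a human lymphoma, and all values refer to this 1 line. The labels do not say if the suffixes of the 2 titles, 1 and 2, number replicates. RNA carrying poly(A) was sequenced, giving 33730703 counts in the untreated and 50174434 counts in the treated library. The comparison asks which genes differ after exposure. With 1 library per condition there is no replicate check, no test and no p-value: higher and lower compare these 2 libraries. Every interval covers counting error only, not variation between cultures. PCR copies of a molecule were counted without identifiers, so the intervals may be too narrow even for counting error.

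The labelled cell type was checked against markers, as counts in the untreated and then the treated library. Of 10 T cell markers 8 were measured, with CD3D at 7122 and 7431 and CD4 at 768 and 1387, whereas CD2 (0 and 2) and CD7 (8 and 8) were at or near 0. Scaled for library size the measured markers moved both ways, from a log2 ratio of -0.58 for CD3D to 1.11 for CD3G (931 and 3134 counts). The 10 markers summed to 1278 scaled CPM (library-scaled counts, defined below) untreated and 1346 treated. Of 5 B cell markers 2 were measured, CD79A (6007 and 6628 counts) and CD79B (755 and 1065). The 5 summed to 206 and 150 CPM, with PAX5 at 0 in both libraries. Of 6 epithelial and fibroblast markers 3 were measured, and the 6 summed to 87.4 and 73.8 CPM. Most of this was EPCAM, with 2591 and 3236 counts, more than CD4. Myeloid markers (1 of 5 measured) summed to 1.67 and 2.71 CPM and erythroid markers (0 of 4) to 0.0607 and 0.0389 CPM. The part of these marker differences in the values below was not tested.

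Synthetase mRNAs differed little between the 2 libraries. Counts were divided by library sizes scaled with TMM, the trimmed mean of M-values, which gives the scaled CPM, and the log2 ratio of treated over untreated was taken after adding 0.5 to each count. The size rule asked for a 1.5-fold or larger ratio whose exact binomial (Clopper-Pearson) interval at 95% left out equality. Of the 36 synthetase genes 0 were higher by this rule, beside 7.26% of all measured genes, and 0 were lower, beside 9.57%. At a smaller limit, a log2 ratio of 0.322 in either direction with the same interval rule, 3 of 20 cytosolic genes (IARS, MARS, EPRS) and 3 of 16 mitochondrial genes (LARS2, EARS2, IARS2) were higher, beside 20.4% of all measured genes. DARS was the 1 member lower at this limit, beside 21.5% of all measured genes. With total-count scaling in place of TMM, 7 cytosolic and 5 mitochondrial genes were higher at this limit, beside 25.7% of all measured genes. IARS was then at 0.584, just short of 1.5-fold. At the smaller limit 1 member was then lower, beside 17.7% of all measured genes. The limit falls within a run of close values: EPRS at a log2 ratio of 0.326 and MARS at 0.327 lay just inside it, and GARS at 0.318 and AARS2 at 0.319 just outside.

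**Figure D1:**
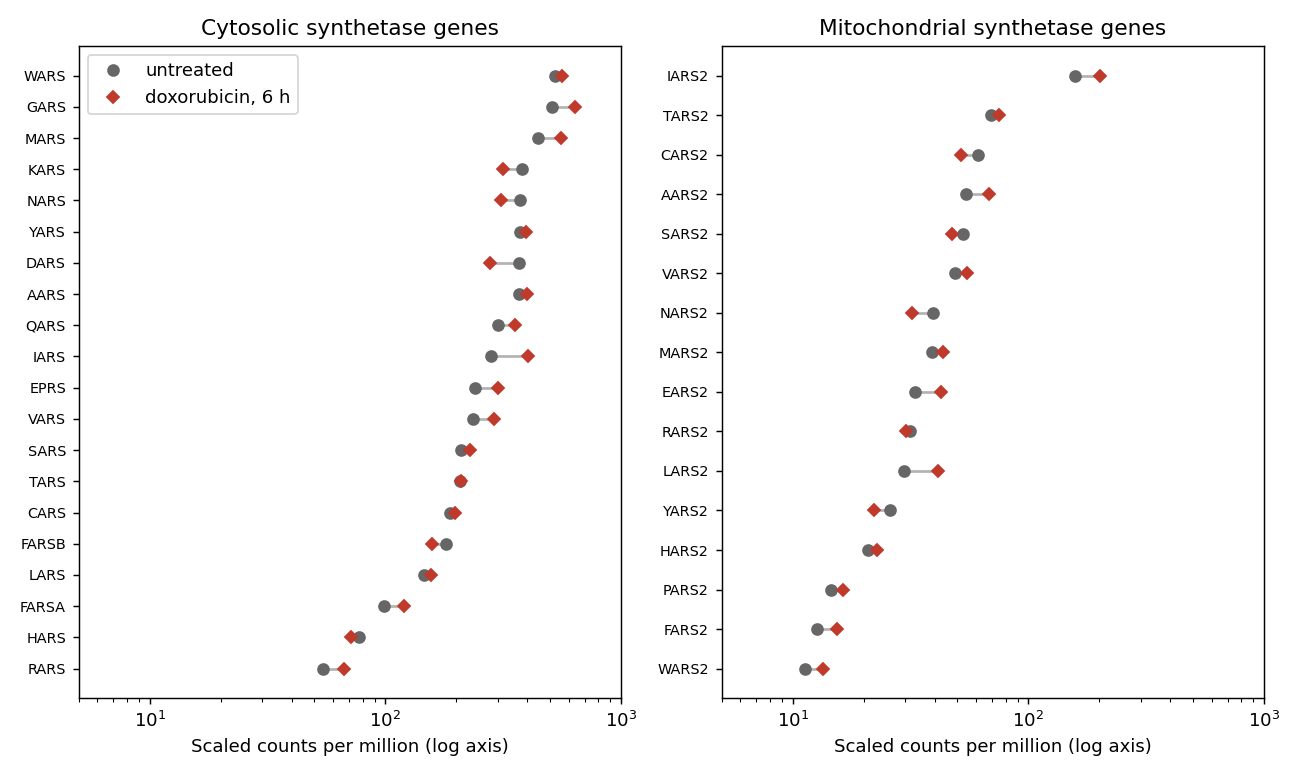
Scaled CPM on a log axis for each of the 20 cytosolic (left) and 16 mitochondrial (right) synthetase genes, in the untreated library (grey circles) and the library treated for 6 h (red diamonds), 1 library each. The 2 marks of a gene lie close together, IARS moves from 281 to 401, and the 20 cytosolic genes span 54.5 (RARS) to 523 (WARS) untreated, the 16 mitochondrial genes 11.3 (WARS2) to 158 (IARS2).

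As a family, 26 of 36 genes had a log2 ratio above 0, or 72.2%, beside 50.7% of all measured genes. After the regression on length and GC described below (called length-GC adjustment) 19 of the 36 were above 0, beside 5361 of 11018 genes. An adjusted value is the distance of a gene from the value fitted to genes like it, not a treated over untreated ratio. The median was 0.11 over the 20 cytosolic genes, from -0.42 (DARS) to 0.52 (IARS), but -0.04 after that adjustment. The 16 mitochondrial genes had a median of 0.16, from -0.30 (NARS2) to 0.49 (LARS2), and 0.08 after that adjustment. All measured genes had a median of 0.007, with an interquartile range from -0.28 to 0.27. The difference of the medians, cytosolic minus mitochondrial, was -0.05, which is small beside the spread within either set. Mitochondrial genes gave 23133 of the 206164 synthetase counts in the untreated library, a share of 11.2% (Clopper-Pearson 11.1 to 11.4), and 40038 of 348372 in the treated library, 11.5% (11.4 to 11.6). The 36 genes together took 0.611% of all counts untreated (0.609 to 0.614) and 0.694% treated (0.692 to 0.697). These 2 shares are of raw library totals. In scaled CPM, which uses TMM, the 36 genes summed to 6258 untreated and 6782 treated, a smaller rise.

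**Figure D2:**
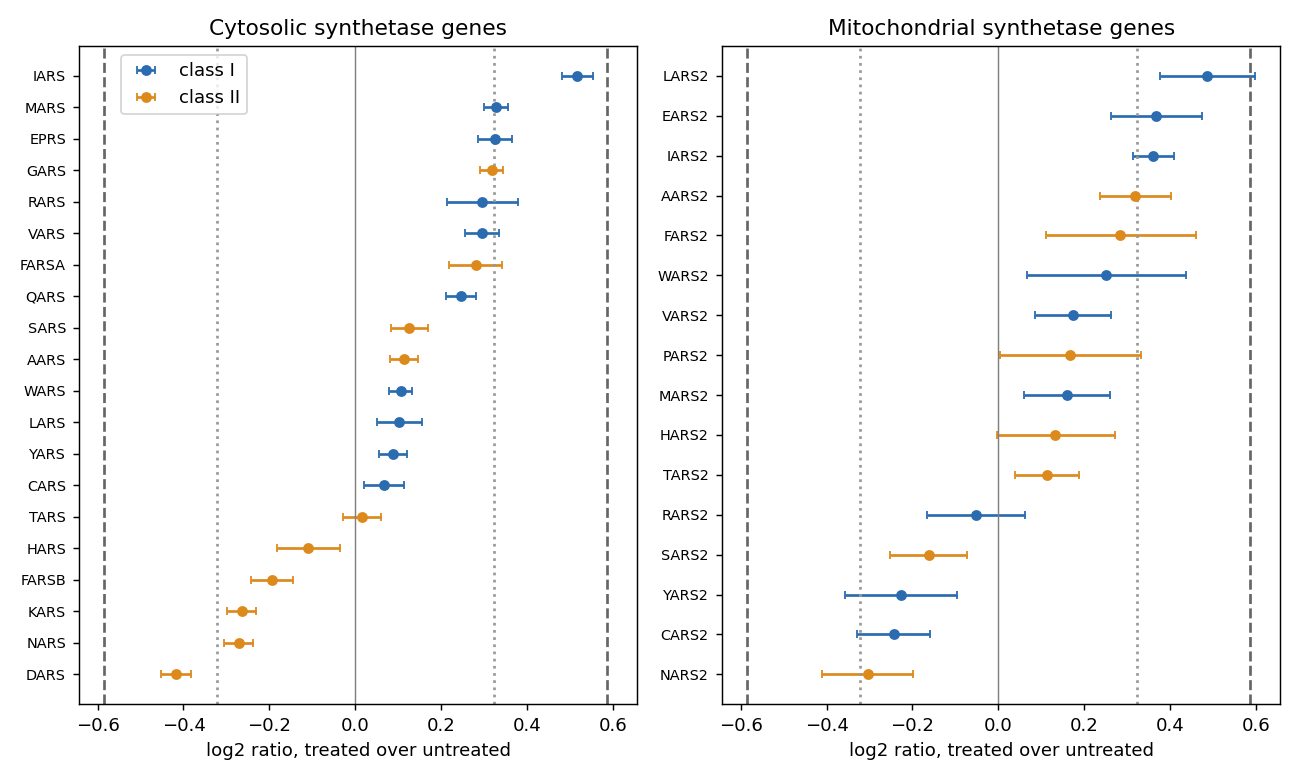
Log2 ratio of treated over untreated for the cytosolic (left) and mitochondrial (right) synthetase genes, class I in blue and class II in orange, with bars for the 95% counting interval, and with dotted lines at a log2 ratio of 0.322 in either direction and dashed lines at 1.5-fold. All 36 points lie inside the dashed lines, and the 10 cytosolic class I genes lie above 0, although 4 of these 10 were below 0 after the length-GC adjustment.

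Among cytosolic class I enzymes the isoleucine, methionine and glutamate-proline synthetases had the highest ratios. IARS, which charges isoleucine tRNA, had 9244 counts untreated and 20616 treated, or 281 and 401 scaled CPM. Its ratio of 1.43-fold (1.40 to 1.47) was the highest of the 36. MARS, which also supplies the initiator methionyl-tRNA, had 14561 and 28485 counts, or 442 and 555 scaled CPM, a log2 ratio of 0.33 (0.30 to 0.36). Of the annotated exon bases of MARS 12.4% overlap ARHGAP9 and DDIT3, so reads there may be credited to either gene. EPRS, a single chain that charges glutamate and proline and is placed here in class I by its glutamate-charging domain, had 7895 and 15428 counts, or 240 and 300.3 scaled CPM. Its log2 ratio was 0.33 (0.287 to 0.365). With the curve for transcript length described below, the log2 values of IARS, MARS and EPRS were 0.37, 0.34 and 0.15, and after length-GC adjustment 0.28, 0.15 and 0.06. EPRS was thus short of the 0.322 limit under both adjustments, and IARS and MARS after the length-GC adjustment.

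The other cytosolic class I genes lay between 0 and these values. RARS for arginine was at a log2 ratio of 0.29 (0.21 to 0.38) from 1796 and 3436 counts. VARS for valine was at 0.29 (0.25 to 0.33) and QARS for glutamine at 0.25 (0.21 to 0.28). LARS for leucine (0.10), WARS for tryptophan (0.11), YARS for tyrosine (0.09) and CARS for cysteine (0.07) were closer to 0. These 4 were at -0.09, -0.03, -0.06 and -0.09 after length-GC adjustment, so they did not stand above genes of like length and GC content.

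Cytosolic class II genes fell on both sides, 5 above 0 and 5 below, with a median log2 ratio of -0.05, beside 0.27 for the 10 class I genes. In sums of scaled CPM, class I went from 2780 to 3277 and class II from 2776 to 2725. After length-GC adjustment the medians were 0.08 and -0.17, with 6 of 10 and 3 of 10 genes above 0. With the curve for transcript length alone they were 0.16 and -0.06, with 9 of 10 and 4 of 10 above 0. Among mitochondrial genes the classes lay closer, with medians of 0.17 over 9 class I genes and 0.13 over 7 class II genes.

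DARS, which charges aspartate tRNA, had the lowest ratio of all members, with 12190 counts untreated and 14232 treated, or 370.0 and 277 scaled CPM, 1.34-fold lower (1.30 to 1.37). Its log2 ratio of -0.42 was -0.31 under either adjustment, short of the 0.322 limit. NARS, the asparagine enzyme, followed with 12320 and 15913 counts, or 374 and 309.8 scaled CPM, a log2 ratio of -0.27 (-0.31 to -0.24). KARS, whose gene serves the cytosol and the mitochondrion with lysine synthetase through alternative transcripts, had 12478 and 16196 counts, or 379 and 315 scaled CPM, a log2 ratio of -0.26 (-0.30 to -0.23). All 3 genes were lower in the treated library under every scaling tried, and lay below the fitted values under both adjustments. HARS for histidine was at -0.11 (-0.18 to -0.04), TARS for threonine at 0.02 (-0.03 to 0.06), AARS for alanine at 0.11 (0.08 to 0.14) and SARS for serine at 0.13 (0.08 to 0.17).

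GARS, the glycine enzyme, also serves both compartments, and per length it was the most abundant member. Its level per kilobase of transcript was 193 CPM before and 241 CPM after exposure, from 16791 and 32631 counts. The log2 ratio was 0.32 (0.29 to 0.34). The lowest cytosolic gene per kilobase was RARS, at 25.4 and 31.2. On the same scale the highest mitochondrial gene was IARS2, at 44.2 and 56.8, and the lowest was WARS2, at 4.03 and 4.79.

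FARSA and FARSB encode the alpha and beta subunits of cytosolic phenylalanine synthetase, which work as 1 enzyme, and they went in opposite directions. FARSA had 3265 and 6181 counts, a log2 ratio of 0.28 (0.22 to 0.34). FARSB had 5956 and 8121 counts, a log2 ratio of -0.19 (-0.24 to -0.15). Per kilobase the 2 mRNAs were near parity in untreated cells, with a FARSA to FARSB ratio of 1.02, and stood at 1.41 in treated cells. The difference of their log2 ratios was 0.47 (0.40 to 0.55, exact conditional interval of the odds ratio), a value that no scaling of the libraries can change. FARSA has the shorter transcript (1814 against 3369 bases), and the difference was 0.74 with the curve for transcript length and 0.64 after length-GC adjustment.

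Of the mitochondrial enzymes, LARS2 for leucine had 975 counts untreated and 2130 treated, or 29.6 and 41.5 scaled CPM. It was 1.40-fold higher (1.30 to 1.51). EARS2 for glutamate had 1092 and 2196 counts, or 33.1 and 42.7 scaled CPM, and was 1.29-fold higher (1.20 to 1.39). IARS2 for isoleucine had 5189 and 10387 counts, or 158 and 202 scaled CPM, and was 1.28-fold higher (1.24 to 1.33). These were the 3 highest mitochondrial ratios before adjustment. With the length curve LARS2, IARS2 and EARS2 were at 0.38, 0.31 and 0.28, below FARS2 at 0.55. After length-GC adjustment they were at 0.20, 0.22 and 0.14, below WARS2 at 0.44 and FARS2 at 0.36. The WARS2 value rests on an annotated coding length that is short for its protein, as given below. With the length curve WARS2 was at 0.28. AARS2 for alanine (0.32), FARS2 for phenylalanine (0.28) and WARS2 for tryptophan (0.25) had log2 ratios above 0 under every scaling tried. So did PARS2 for proline (0.17), MARS2 for methionine (0.16) and HARS2 for histidine (0.13). All of these also lay above the fitted values under both adjustments. The interval of HARS2, from -0.004 to 0.27, took in 0, and 15.8% of its exon bases overlap HARS or ZMAT2.

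At the other end, NARS2 for asparagine had 1303 and 1646 counts, or 39.5 and 32.0 scaled CPM, a log2 ratio of -0.30 (-0.41 to -0.20). CARS2 for cysteine had 2012 and 2649 counts, or 61.1 and 51.6 scaled CPM, a log2 ratio of -0.24 (-0.33 to -0.16). YARS2 for tyrosine had 851 and 1134 counts, or 25.8 and 22.1 scaled CPM, a log2 ratio of -0.23 (-0.36 to -0.10). These 3 genes had the lowest unadjusted ratios of the mitochondrial set. RARS2 for arginine was at -0.05 (-0.17 to 0.06) but at 0.02 with total-count scaling and at 0.10 after length-GC adjustment. SARS2 for serine was at -0.16, with 57.0% of its exon bases overlapped by MRPS12 and a read-through gene and 70.4% of its sampled 50-base stretches shared, so this value is uncertain. VARS2 for valine was at 0.17, with 22.0% of exon bases overlapping GTF2H4, and TARS2 for threonine at 0.11, and both were below 0 (-0.04 and -0.02) after that adjustment.

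Cytosolic and mitochondrial genes for the same amino acid were then compared as pairs, in which library scaling cancels. There were 17 pairings over 16 amino acids, since FARSA and FARSB were each set against FARS2 and EPRS against both EARS2 and PARS2. The cytosolic gene had the higher log2 ratio in 9 and the mitochondrial gene in 8, with a median difference of 0.03. The counting interval left out 0 in 7 of the 9 and 5 of the 8. With the curve for transcript length the cytosolic gene was ahead in 7 of 17, and after length-GC adjustment in 8. The lead was thus split between the compartments.

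The differences of single pairs ran both ways. Before adjustment the cytosolic gene was ahead most for arginine, where RARS exceeded RARS2 by 0.35 (0.21 to 0.49) on the log2 scale, and for tyrosine, where YARS exceeded YARS2 by 0.31 (0.18 to 0.45). CARS exceeded CARS2 by 0.31 (0.21 to 0.41). These 3 differences were 0.27, 0.14 and 0.13 with the length curve and 0.30, 0.17 and 0.14 after length-GC adjustment. SARS exceeded SARS2 by 0.29 (0.19 to 0.39), and by 0.33, the widest such lead, with the length curve. This difference is uncertain, since 57.0% of the exon bases of SARS2 are overlapped by other genes. The mitochondrial gene was ahead for leucine, with LARS minus LARS2 at -0.38 (-0.51 to -0.26), and for phenylalanine against the beta subunit, with FARSB minus FARS2 at -0.48 (-0.66 to -0.30). The latter was -0.78 with the length curve. For alanine, AARS minus AARS2 was -0.21 (-0.30 to -0.12). The asparagine genes stood together, with NARS minus NARS2 at 0.03 (-0.08 to 0.14), or -0.05 and -0.06 under the adjustments, and both genes below 0. The isoleucine genes were both above 0, with IARS minus IARS2 at 0.16 (0.10 to 0.22), or 0.06 under either adjustment.

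In level, the cytosolic gene exceeded its mitochondrial counterpart in each of the 17 pairings in both libraries. Per kilobase of transcript the untreated excess had a median of 5.71-fold. The narrowest gap was between IARS and IARS2, at 1.36-fold untreated and 1.52-fold treated. The widest was between WARS and WARS2, at 42.0-fold and 38.0-fold.

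**Figure D3:**
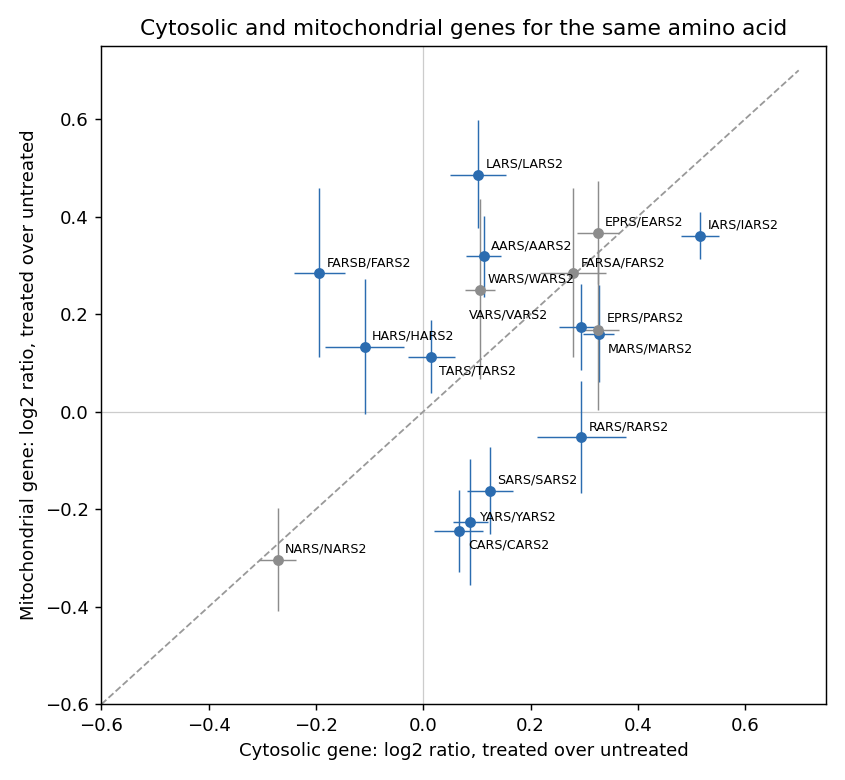
Log2 ratio of treated over untreated for the cytosolic gene (horizontal axis) and the mitochondrial gene (vertical axis) of each of 17 pairings, with bars for the 95% counting intervals. Blue marks pairs whose difference has a counting interval without 0 and grey the others, and the points fall on both sides of the dashed line of equal ratios, with 9 below it and 8 above.

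The 8 cytosolic enzymes of the multi-tRNA synthetase complex were not displaced as a unit. Of IARS, MARS, EPRS, RARS, QARS, LARS, KARS and DARS, 6 were above 0 and 2 below, with a median log2 ratio of 0.27, beside 0.10 for the 12 cytosolic genes outside the complex. After length-GC adjustment the medians were 0.08 and -0.07. The complex held both the highest (IARS) and the lowest (DARS) ratio of the family. Its 3 non-enzymatic scaffold genes were all below 0. AIMP1 was at -0.28 (-0.35 to -0.20) from 2792 and 3594 counts, AIMP2 at -0.19 (-0.29 to -0.09) from 1389 and 1895, and EEF1E1 at -0.50 (-0.57 to -0.42) from 2542 and 2810. After length-GC adjustment these were at -0.007, 0.03 and 0.17, near or above the values fitted for their length and GC content. With the length curve AIMP1 was at -0.21, AIMP2 at 0.24 and EEF1E1 at -0.004.

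Transcript length went with the ratio over the whole table, with a Spearman's rho of 0.55 across 11018 measured genes, which are not independent replicates. Among the synthetases rho was 0.39 over the 36 genes, 0.16 over the 20 cytosolic and 0.64 over the 16 mitochondrial genes, given as a description of genes from the same 2 libraries. Each gene was therefore also read against a lowess curve of log2 ratio on transcript length over all measured genes, and against a regression on splines of transcript length, coding length and GC content. Against the curve for its length, IARS (4656 bases) lay 0.37 higher, LARS2 (4211 bases) 0.38 higher and DARS (2361 bases) at -0.31. The members farthest above the curve were then the short FARS2 at 0.55 (1692 bases) and FARSA at 0.51 (1814 bases), followed by RARS at 0.44 (2146 bases).

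With the length curve 6 cytosolic genes (IARS, FARSA, GARS, MARS, RARS, SARS) and 2 mitochondrial genes (FARS2, LARS2) were past the limit of 0.322 upwards, beside 15.4% of all measured genes, and 0 were lower, beside 15.1%. With the splines FARSA, RARS, FARS2 and WARS2 were higher, beside 13.2%, and NARS was lower, beside 13.2%. At 1.5-fold, 0 of 36 were higher after the splines, beside 4.13%, and 0 were lower, beside 3.53%. WARS2 rests on the coding length of its longest annotated transcript, 660 bases, which is shorter than that of its longest protein form (360 residues). FARSA, RARS and FARS2 were thus past 0.322 under both adjustments but not without them, while IARS, MARS and LARS2 were past it without adjustment and with the length curve.

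**Figure D4:**
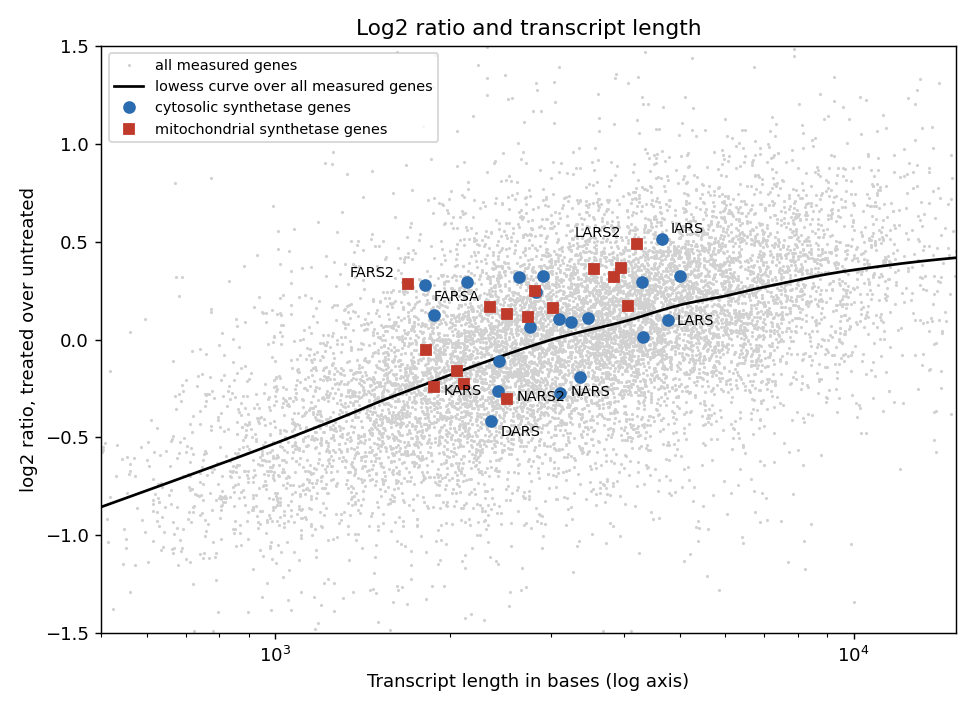
Log2 ratio of treated over untreated against transcript length in bases (log axis) for all measured genes (grey points; those outside the plotted range are not shown), with the lowess curve in black and the synthetase genes in blue (cytosolic) and red (mitochondrial). FARS2 and FARSA lie farthest above the curve, at 0.55 and 0.51, and DARS lies lowest, at -0.31 from it.

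Promoter sequence was examined because many synthetase genes are known ATF4 targets. RefSeq promoter windows (GRCh38.p14, 250 bases before to 50 after each start) matched 30 of the 36 genes, all but DARS, LARS, VARS, YARS, AARS2 and VARS2. The core of the C/EBP-ATF response element to which ATF4 binds was searched as TGATGNAA on both strands. It occurred in 6 of the 30 windows, or 20.0%, and in 3.62% of all 35116 windows. Those 6 genes were AARS, GARS, IARS, MARS and NARS among the cytosolic members and YARS2 among the mitochondrial ones. A match is a string of letters and does not show binding. The stretches around the matches are shown because these genes share the element but had different ratios. Each is written 5′ to 3′ on the strand of the gene, with the element in capitals, which reads as its reverse complement in IARS, GARS, AARS and MARS.
IARS, chr9:92293698-92293727, minus strand, up to the start: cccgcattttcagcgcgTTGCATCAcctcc
GARS, chr7:30594834-30594863, plus strand, upstream of the start: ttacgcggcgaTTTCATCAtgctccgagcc
AARS, chr16:70289657-70289716, minus strand, upstream of the start: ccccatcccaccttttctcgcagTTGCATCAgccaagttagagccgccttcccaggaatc
MARS, chr12:57488046-57488075, plus strand, across the start: gcgggaggccggttccggTTGCATCAgcga
NARS, chr18:57621804-57621833, minus strand, after the start: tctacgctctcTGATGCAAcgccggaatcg
YARS2, chr12:32756058-32756117, minus strand, upstream of the start: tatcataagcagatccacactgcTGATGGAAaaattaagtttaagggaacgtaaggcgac

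The 6 genes with the element did not share a direction. IARS (0.52), MARS (0.33), GARS (0.32) and AARS (0.11) had log2 ratios above 0 before adjustment, and NARS (-0.27) and YARS2 (-0.23) below. AARS was at -0.12 after length-GC adjustment, and the other 5 kept their side. The E-box CACGTG, a MYC family element, occurred in 3 of the 30 windows (IARS, EARS2, MARS2), or 10.0%, and in 7.26% of all windows.

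HARS and HARS2 are neighbours transcribed away from each other on chromosome 5. Between their RefSeq starts lie 84 bases, and this stretch, which serves as upstream sequence for both genes, is 59.5% G and C with 9 CpG. The ratios of the 2 genes differed, and HARS minus HARS2 was -0.24 on the log2 scale (-0.40 to -0.09), from 2539 and 3670 counts for HARS and 686 and 1173 for HARS2. It was -0.23 with the length curve and -0.24 after length-GC adjustment. Of the exon bases of HARS 8.4% overlap HARS2 or WDR55, and of those of HARS2 15.8% overlap HARS or ZMAT2. Reads shared by HARS and HARS2 may be credited to either, so their difference is uncertain.

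Genes around the synthetases in the same pathway were read from lists. In the amino acid response, 24 of 25 genes were measured, of which 2 were higher at 1.5-fold, beside 7.26% of all measured genes, and 2 lower, beside 9.57%, with a median log2 ratio of 0.006. Both counts are near those shares. ATF4 itself was at -0.40 (-0.42 to -0.38) from 40132 and 47544 counts, and ASNS, asparagine synthetase and a standard ATF4 target, at -0.26 (-0.28 to -0.23) from 18989 and 24802. The 2 higher genes encode amino acid transporters. SLC7A1, for cationic amino acids, was at 0.78 (0.75 to 0.82) and SLC7A11, the cystine-glutamate exchanger, at 0.71 (0.56 to 0.86). The 2 lower genes were CEBPB, a partner of ATF4, at -1.26 (-1.32 to -1.19) and EIF4EBP1, a translation repressor, at -0.91 (-0.95 to -0.87). After length-GC adjustment SLC7A1 (0.38) and EIF4EBP1 (-0.18) were no longer past 1.5-fold, and with the length curve SLC7A1 (0.50), SLC7A11 (0.36) and EIF4EBP1 (-0.39) were not.

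Partners of tRNA charging, a list of 13 genes with 12 measured, had 0 members higher at 1.5-fold, beside 7.26% of all measured genes. It had 0 lower, beside 9.57%, and so few genes allow no reading of these counts. The median was -0.20, or 0.01 after length-GC adjustment. This list includes the scaffold genes, the mitochondrial glutaminyl-tRNA amidotransferase and D-aminoacyl-tRNA deacylases. Its members with the most counts were DTD1, a deacylase, at -0.30 (-0.36 to -0.24), and AIMP1. Of 25 genes for tRNA maturation and export 24 were measured, with 1 higher (beside 7.26% of all measured genes), 4 lower (beside 9.57%) and a median of -0.17. RTCB, the tRNA splicing ligase, was at 0.63 (0.56 to 0.69). The lowest were POP7 of RNase P at -0.79 (-0.88 to -0.71), SSB, the La protein, at -0.73 (-0.80 to -0.66) and POP5 at -0.62 (-0.76 to -0.47). After length-GC adjustment RTCB was at 0.63 and these 3 were at -0.21, -0.40 and -0.08, short of the size rule.

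The last lists hold translation factors, which bring charged tRNAs to the ribosome or act with them there. Of 6 cytosolic elongation genes 0 were higher at 1.5-fold (beside 7.26% of all measured genes) and 0 lower (beside 9.57%), with a median of -0.10. EEF1A1, which delivers aminoacyl-tRNA to the ribosome, was at -0.02 (-0.03 to -0.02) from 351399 and 539757 counts, and EEF2 at 0.10 (0.09 to 0.11). Of 11 mitochondrial translation factor genes 10 were measured, 0 higher (beside 7.26%) and 2 lower (beside 9.57%), with a median of -0.09, or 0.004 after length-GC adjustment. The 2 were MTIF3, an initiation factor, at -0.78 (-0.93 to -0.64) and C12orf65, a ribosome rescue factor, at -0.75 (-0.84 to -0.66), with -0.33 and -0.53 after length-GC adjustment, both short of 1.5-fold.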

How the data were processed

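Raw read counts per gene symbol were deposited by the authors as whole numbers, not normalized. HISAT2, featureCounts and the genome build hg19 are named per the submitters' processing notes; versions, annotation, strand and multi-mapping settings were not found in the labels or file, and they affect overlapping genes. TMM library sizes came from edgeR 4.0.16 in R 4.3.3, and DESeq2 1.42.0 size factors were an alternative; neither tool was used for a test. Intervals used scipy 1.17.1 and the lowess curve (span 0.3) statsmodels 0.14.6, with B-splines of 4 degrees of freedom for the regression. Lengths, GC content, exon overlaps and sampled 50-base stretches came from GENCODE 29 on another assembly (GRCh38), for 98.0% of measured genes and all 36 members. The size rule was tested on simulated data with counting error only. A count of 0 allows up to 3 counts, 0.0911 CPM untreated and 0.0584 treated. All 36 members may be named; members past the size rule or among the 3 highest and 3 lowest per compartment get full values. From each other list up to 3 highest and 3 lowest past the size rule were taken, or the 2 with most counts, and ATF4 and ASNS always. The smaller limit (log2 ratio 0.322) was used in the text because 0 members passed 1.5-fold. Members and lists were chosen with earlier results of these data known.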

Additional observations from a re-analysis of the deposited data

How the results depend on the processing

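The counts at 1.5-fold were 0 in both compartments under every alternative that kept this limit, and at 2-fold. IARS came closest, at a log2 ratio of 0.584 with total-count scaling, just short of 1.5-fold. With the limit at a log2 ratio of 0.322, 3 cytosolic and 3 mitochondrial genes were higher, beside 20.4% of all measured genes. In the other direction 1 cytosolic gene was lower, beside 21.5%. At that limit total-count scaling gave 7 cytosolic and 5 mitochondrial genes higher (beside 25.7% of all measured genes). The length curve gave 6 cytosolic and 2 mitochondrial genes higher (beside 15.4%) and 0 lower (beside 15.1%). Total-count scaling lifts every log2 ratio by 0.068. The cytosolic median reversed to -0.0429 after splines on length, coding length and GC content, while the mitochondrial median stayed between 0.08 and 0.23 over all alternatives. The cytosolic minus mitochondrial difference of medians ranged from -0.13 to -0.05. DESeq2 size factors and an added count of 5 changed the sign of 0 of 36 members, total counts of 1 (RARS2), the length curve of 4 and the splines of 9. Without the 4 members with at least 10% of exon bases overlapped or stretches shared, a choice made after seeing the data like the repeats of the count at 0.322, the medians were 0.11 and 0.17. No paired analysis was possible because each condition has 1 library. Variation between cultures was not measured.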

Other observations

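Before adjustment the 4 lowest ratios of the family belonged to the genes for aspartate, asparagine and lysine, which were put together only after their values were seen. DARS, NARS2, NARS and KARS encode synthetases of the same structural subclass, IIb. Their log2 ratios were -0.42, -0.30, -0.27 and -0.26, with -0.31, -0.23, -0.28 and -0.17 against the length curve, -0.31, -0.27, -0.33 and -0.30 after length-GC adjustment, and -0.35, -0.24, -0.20 and -0.20 with total-count scaling. All 4 were below 0 under these settings, but with the length curve FARSB, at -0.23 (-0.232 against -0.230 for NARS2), was lower than NARS2 and KARS.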
